A study of Mus musculus with 10 samples.

Results

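The Hox genes were followed in tumour cells sorted from allografts of malignant peripheral nerve sheath tumours (MPNST), sarcomas of the nerve sheath, in the mouse. They were taken as every protein-coding mouse gene named Hox with a cluster letter a to d and a paralogue number, which gave 39 genes in 4 clusters out of 46517 genes counted. Tumours of 5 allograft models, lettered A to E, each gave 1 library of GFP+ cells, which in the series' terms express the CGD transgene, and 1 library of GFP- cells, which do not, so that 10 libraries form 5 pairs. All libraries share the MPNST allograft origin, and the sort removed wild-type cells and dead cells from each. The sources used here do not give the expansion of CGD, the promoter that drives it, the tumours' genotypes, the body site where each tumour arose, the age of the mice or the number of animals behind a model. Nothing says that the libraries of a model come from separate animals. The p-values rest on how far the difference between populations varies from model to model, part of which may be technical. They do not measure how far animals of a model vary.

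Hox genes encode homeodomain transcription factors that give cells of the embryo their position between head and tail. In mammals they stand in 4 clusters, HoxA to HoxD, and genes of the same paralogue number in different clusters are close relatives. On GRCm38 HoxA lies at chr6:52155590-52260880, HoxB at chr11:96194316-96368256, HoxC at chr15:102921103-103036852 and HoxD at chr2:74668310-74765142, with 11, 10, 9 and 9 genes. Within a cluster the genes with low numbers are switched on early and reach far towards the head, whereas those with high numbers are switched on later and further towards the tail and the ends of the limbs. Fibroblasts and Schwann cells of adult tissues keep much of the Hox pattern of the body region they come from, and neural crest cells of the face have none.

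Library totals in genes were 15978673 to 22082207 reads, so that 3 reads, the most a count of 0 allows, correspond to 0.136 to 0.188 CPM (counts scaled to the library's total in genes). Such limits cover counting error only. The 7 listed fibroblast markers together gave 7948 to 12980 CPM in GFP+ cells, against 8756 to 16220 CPM in GFP- cells. Col1a1 was 2087 CPM or more in every library. Lum, Pi16 and Fbln1 fell to 0.905, 1.59 and 6.935 CPM in their lowest libraries. The 10 Schwann lineage markers summed to 64.9 to 399 CPM in GFP+ cells, against 23.7 to 128 CPM in GFP- cells, and Sox10, the factor that specifies Schwann cells, was at 0.43 CPM or less in models A and E. The leukocyte gene Ptprc was at 0.45 CPM or less in every library. The 8 listed leukocyte genes together gave 16.9 to 54.3 CPM in GFP+ cells, against 11.4 to 58.6 CPM in GFP- cells. Among them Cd68 was 6.07 to 16.6 CPM and Cd14 was 2.94 to 50.9 CPM over the 10 libraries. In bulk cells, fewer cells of a type and less RNA per cell cannot be told apart.

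A pair of libraries stood apart from their partners in sex-linked genes, which were looked up after other values were seen. Xist, the RNA of the inactive X chromosome, was 0.11, 1049, 724, 103 and 567 CPM in GFP+ cells of models A to E, against 0.05, 523, 615, 2.82 and 565 CPM in GFP- cells. The Y-linked genes Ddx3y, Eif2s3y, Kdm5d and Uty together gave 121, 1.86, 1.41, 121.5 and 4.63 CPM in GFP+ cells, against 184, 0.362, 1.21, 188 and 0.488 CPM in GFP- cells. GFP+ cells of model D thus carried Xist beside Y-linked RNA, and GFP+ cells of model E carried more Y-linked RNA than GFP- cells of model E. Counts of called genes and the spread among models are therefore also given without models D and E.

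Most Hox genes were on in at least 1 model, and which ones were on depended on the model. At 1 CPM or more, 33 of the 39 genes were present in at least 1 library and 11 in all 10. These 11 were Hoxb2 to Hoxb8, Hoxc6, Hoxd4, Hoxd8 and Hoxd9. Another 22 genes passed 1 CPM in some libraries and not in others. Hoxa11, Hoxa13, Hoxb13 and Hoxd13 had reads but stayed under 1 CPM, and Hoxb1 and Hoxd12 had no read in any library. The number of Hox genes at 1 CPM or more was 21, 25, 18, 32 and 23 in GFP+ cells of models A to E, against 19, 25, 19, 31 and 16 in GFP- cells.

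**Figure D1:**
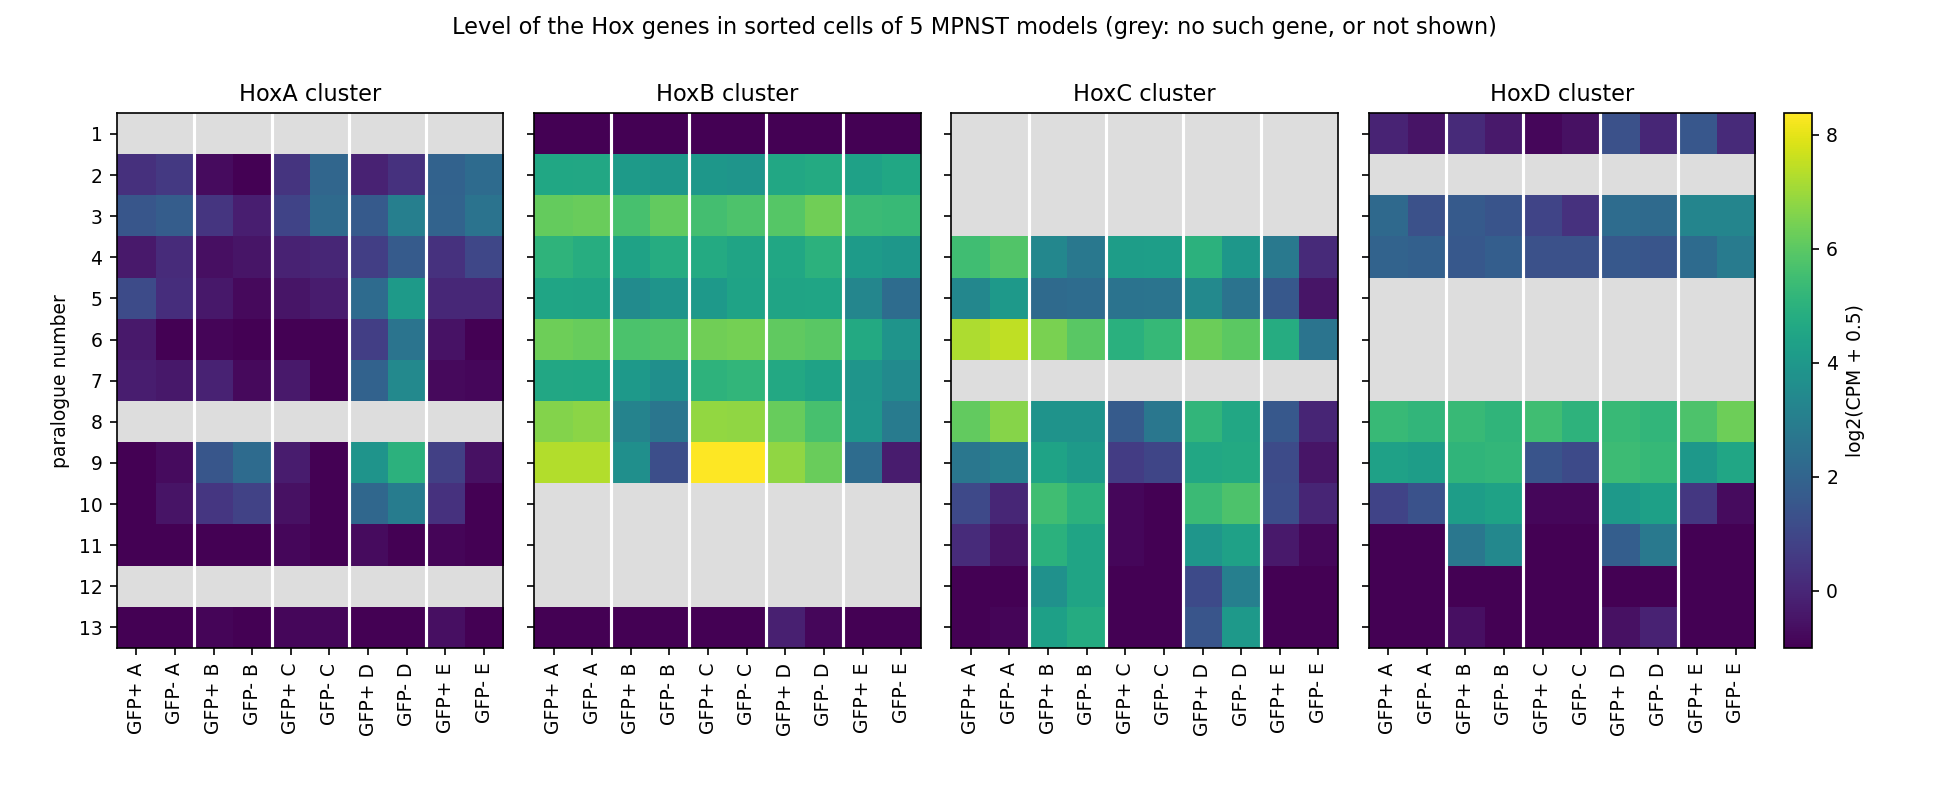
Level of the Hox genes by cluster (panels) and paralogue number (rows) in the 10 libraries (columns, GFP+ left of GFP- within each model), as log2(CPM + 0.5), with grey where the cluster has no such gene or a gene is not shown. HoxB genes 2 to 7 and Hoxd8 are bright in every library, whereas HoxC genes 10 to 13 are bright in models B and D and the HoxA cluster is brightest in model D.

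By summed CPM, which is not scaled by gene length, HoxB held the largest share in 7 of the 10 libraries (HoxC led in both libraries of model B and HoxD in GFP- cells of model E), and Hoxb2 to Hoxb8 were on everywhere, whereas Hoxb1 had no read. The HoxB sum was 509, 186, 664, 404 and 148 CPM in GFP+ cells of models A to E, against 511, 200, 666, 367 and 114 CPM in GFP- cells. Hoxb3, which helps to pattern the hindbrain and neck, was among the steadiest, at 70.4, 49.6, 47.0, 59.2 and 41.5 CPM in GFP+ cells, against 74.6, 69.1, 53.6, 80.2 and 39.4 CPM in GFP- cells. Hoxb2, a hindbrain segment gene, kept within 14.9 to 24.2 CPM in GFP+ cells, against 14.3 to 26.03 CPM in GFP- cells. Hoxb6, a trunk gene, was 79.1, 52.1, 80.7, 66.8 and 25.5 CPM in GFP+ cells, against 73.1, 54.2, 85.5, 61.8 and 14.1 CPM in GFP- cells. Model E was the lowest in Hoxb6 in both populations. Hoxb5, a neck and upper trunk gene, was also lowest in E, at 9.31 CPM in GFP+ cells, against 4.45 CPM in GFP- cells, and Hoxb7 was highest in C, at 32.8 CPM in GFP+ cells, against 35.1 CPM in GFP- cells. Hoxb2, Hoxb3, Hoxb5, Hoxb6 and Hoxb7 passed the test among models that is described further on (adjusted p of 0.0105, 0.0255, 0.0233, 0.00307 and 0.00271 by edgeR). With reads of both strands counted, Hoxb2 and Hoxb3 did not pass (adjusted p = 0.0972 and 0.105), and they lost the call without model C too.

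The end of HoxB nearest to the tail set the models apart. Hoxb9, a gene of the thorax and trunk, stood at 157, 12.4, 331, 112 and 4.44 CPM in GFP+ cells of models A to E, against 158, 1.90, 323, 75.0 and 0.325 CPM in GFP- cells. Models A, C and D were high and models B and E low in both populations. Hoxb8, its neighbour in the cluster, gave 98.9, 8.57, 116, 72.1 and 14.8 CPM in GFP+ cells, against 107, 5.89, 111, 49.5 and 6.996 CPM in GFP- cells, again with B and E below A, C and D. Both genes differed among the models in edgeR's quasi-likelihood test over all genes (adjusted p = 0.00190 for Hoxb9 and 0.000371 for Hoxb8). Hoxb4 did not (adjusted p = 0.0852), though it did without model B, and lay at 17.4 to 33.6 CPM in GFP+ cells, against 15.0 to 32.0 CPM in GFP- cells.

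The microRNAs that lie in the clusters are shown because their seeds (bases 2 to 8, in capitals) group them by family, and because a miR-196 site lies in the mRNA of Hoxb8. MicroRNAs of the Hox clusters are known to repress Hox mRNAs. The mature sequences are those of RefSeq on GRCm38.p6, written 5′ to 3′.
miR-196a-5p: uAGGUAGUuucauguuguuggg
miR-196b-5p: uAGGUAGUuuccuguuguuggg
miR-10a-5p: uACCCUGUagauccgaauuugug
miR-10b-5p: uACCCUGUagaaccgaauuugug
The copies of miR-196a lie beyond Hoxb9 (chr11:96265187-96265208, plus strand) and between Hoxc10 and Hoxc9 (chr15:102973365-102973386, plus strand), and miR-196b overlaps the annotated Hoxa9 (chr6:52230129-52230150, minus strand). The miR-10 copies lie next to Hoxb4 and within the annotated span of Hoxd4. The site in the Hoxb8 3′ UTR (chr11:96284888-96284909, plus strand, GRCm38) is complementary to miR-196a at 21 of 22 bases, with the matching bases in capitals.
Hoxb8 site: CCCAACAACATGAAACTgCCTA
The libraries hold reads of longer RNA, and mature microRNAs were not measured. Reads over the hairpin gene Mir196a-1 were 1.28, 0.320, 2.44, 1.04 and 0 CPM in GFP+ cells of models A to E, against 1.23, 0.0453, 2.20, 1.38 and 0 CPM in GFP- cells, and differed among the models (adjusted p = 0.00580 by edgeR). Its neighbour Gm53, a long noncoding RNA (chr11:96251105-96264868, plus strand, between Hoxb13 and Hoxb9), was 61.4, 3.89, 67.0, 27.1 and 2.32 CPM in GFP+ cells, against 51.8, 1.54, 54.6, 33.4 and 0.217 CPM in GFP- cells. Gm53, like Hoxb9, was higher in A, C and D than in B and E (adjusted p among models = 0.00140 by edgeR).

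**Figure D2:**
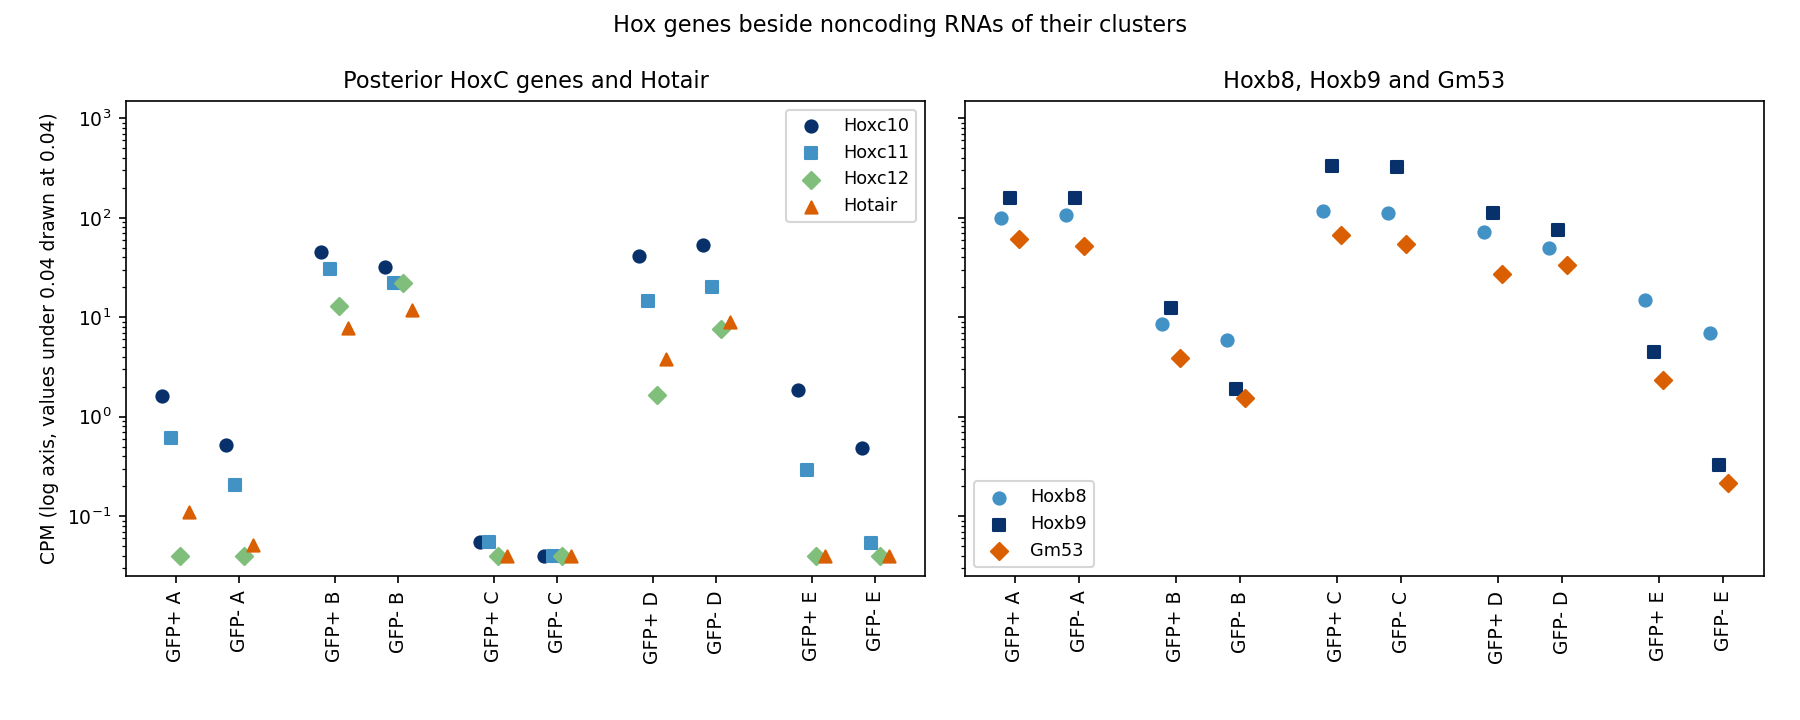
CPM on a log axis of 3 HoxC genes with Hotair (left) and of Hoxb8, Hoxb9 and Gm53 (right) in the 10 libraries, GFP+ left of GFP- within each model, with values under 0.04 drawn at 0.04. Hotair passes 1 CPM only in the 4 libraries of models B and D, and Hoxb9 and Gm53 are lowest in GFP- cells of model E.

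The posterior genes of HoxC were on mainly in models B and D. Hoxc10, a gene of the lumbar and hindlimb region, stood at 1.61, 45.1, 0.0543, 41.7 and 1.83 CPM in GFP+ cells of models A to E, against 0.514, 31.8, 0, 53.0 and 0.488 CPM in GFP- cells. Hoxc11, which acts in the same region, gave 0.611, 30.9, 0.0543, 14.6 and 0.290 CPM in GFP+ cells, against 0.206, 21.9, 0, 19.96 and 0.0542 CPM in GFP- cells. Both genes were higher in each library of B and D than in any library of A, C and E. This grouping of models, like those given for HoxB and HoxD, was made after the values were seen. The share of all genes that separate the models in this way was not counted. Hoxc12 was 12.9 and 1.65 CPM in GFP+ cells of B and D, against 21.8 and 7.70 CPM in GFP- cells, and it had no read in the 6 libraries of the other models. Hoxc13, a gene of the tail and of hair and nails, was 19.4 and 2.30 CPM in GFP+ cells of B and D, against 26.4 and 16.3 CPM in GFP- cells, with 1 read in all the other libraries together. The 4 genes differed among the models by edgeR (adjusted p = 0.000344 for Hoxc10, 0.000301 for Hoxc11, 0.00189 for Hoxc12 and 0.00167 for Hoxc13). The call of Hoxc12 was lost with DESeq2.

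The middle of HoxC was led by model A. Hoxc8, which acts in the thorax and its motor neurons, was 69.9, 13.47, 2.77, 35.4 and 2.46 CPM in GFP+ cells of models A to E, against 102, 13.4, 6.05, 24.03 and 0.488 CPM in GFP- cells (adjusted p among models = 0.00164 by edgeR). Hoxc6, a gene at the border of neck and thorax, gave 148, 88.1, 30.4, 76.0 and 27.2 CPM in GFP+ cells, against 178, 62.5, 38.8, 64.5 and 5.59 CPM in GFP- cells. Both genes were highest in model A in each population. So was Hoxc4, a gene of the neck region, at 45.0, 9.64, 18.0, 32.0 and 6.47 CPM in GFP+ cells, against 56.1, 6.16, 18.7, 14.9 and 0.597 CPM in GFP- cells (adjusted p = 0.0129). Hoxc9 was highest in D and B, at 24.1 and 21.3 CPM in GFP+ cells, against 25.3 and 16.6 CPM in GFP- cells, and was 7.56 CPM or less elsewhere. Hoxc5 lay at the threshold of the test among models (adjusted p = 0.0518 by edgeR), and it was called by DESeq2 (adjusted p = 0.00145) and limma voom (0.0497), with no filter on low counts, with library totals, without model B and with models A, B and C only. It shares 166 bases of exon with Hoxc10 on the same strand, so that part of either gene's reads could not be assigned.

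Hotair, a long noncoding RNA on the strand opposite to the HoxC genes (chr15:102944062-102947730, between Hoxc12 and Hoxc11), is known for a disputed part in silencing HoxD. It was 7.88 and 3.78 CPM in GFP+ cells of B and D, against 11.8 and 8.89 CPM in GFP- cells. It did not exceed 0.11 CPM in the other 6 libraries (adjusted p among models = 0.000836 by edgeR). Hotair and the genes Hoxc10 to Hoxc13 around it were thus at their highest in the same models.

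In HoxD, Hoxd8 was on in every library, and the genes beyond Hoxd9 were on mainly in models B and D. Hoxd8, a gene of the trunk, was 39.4, 39.1, 45.2, 39.8 and 53.3 CPM in GFP+ cells of models A to E, against 35.2, 34.4, 32.5, 35.4 and 79.3 CPM in GFP- cells. It passed the test among models (adjusted p = 0.0252 by edgeR) but not without model E. Hoxd9 was 20.1, 34.5, 2.17, 42.8 and 15.5 CPM in GFP+ cells, against 17.9, 36.6, 1.65, 37.9 and 23.1 CPM in GFP- cells, with model C lowest in both (adjusted p = 0.000371). Hoxd10, which acts in the lumbar cord and the limbs, was 1.33, 18.2, 0.0543, 15.7 and 0.917 CPM in GFP+ cells, against 2.06, 20.4, 0.0550, 19.8 and 0.109 CPM in GFP- cells (adjusted p = 0.000792). Hoxd11, a limb gene, was 6.02 and 3.02 CPM in GFP+ cells of B and D, against 9.96 and 6.38 CPM in GFP- cells, and had no read in models A, C and E (adjusted p = 0.00141). Hoxd12 had no read, and Hoxd13 reached 0.438 CPM at most. As in HoxC, models B and D reached furthest towards paralogue 13, but HoxD stopped after Hoxd11 where HoxC went on to Hoxc13.

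The promoters of Hoxd8 and Hoxd10 are shown as those of a gene that was on in every model and of one that was on mainly in B and D. RefSeq promoters matched 22 of the 39 Hox genes. Each window is the 250 bases upstream of the RefSeq start on GRCm38.p6, plus strand, 5′ to 3′, with CG dinucleotides in capitals.
Hoxd8 promoter (chr2:74704365-74704614): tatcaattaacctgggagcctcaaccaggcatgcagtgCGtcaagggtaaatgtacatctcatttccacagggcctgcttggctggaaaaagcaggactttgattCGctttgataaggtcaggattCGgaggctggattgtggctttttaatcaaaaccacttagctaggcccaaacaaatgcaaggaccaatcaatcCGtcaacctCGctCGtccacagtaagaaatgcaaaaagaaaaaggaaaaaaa
Hoxd10 promoter (chr2:74691641-74691890): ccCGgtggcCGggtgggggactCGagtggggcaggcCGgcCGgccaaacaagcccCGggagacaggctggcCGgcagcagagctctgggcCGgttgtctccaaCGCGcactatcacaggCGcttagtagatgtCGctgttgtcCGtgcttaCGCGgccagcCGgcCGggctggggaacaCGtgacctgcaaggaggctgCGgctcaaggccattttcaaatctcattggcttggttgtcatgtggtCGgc
The Hoxd8 window holds 6 CG dinucleotides at 44.4% GC and the Hoxd10 window holds 20 at 65.6% GC. The median was 6 over 32851 mouse promoter windows of this length and 12.5 over 24 windows of Hox genes. CG counts did not follow the on-pattern throughout. The window of Hoxd9, also on in every library, holds 13, and those of Hoxd11, on in B and D only, hold 2 and 20. Neither the Hoxd8 nor the Hoxd10 window holds TGATTNAT, a motif of Hox proteins bound with Pbx, or TATAAA, searched on both strands. The shares of all windows that hold them are 2.82% for TGATTNAT and 12.4% for TATAAA. Methylation and factor binding were not measured in these libraries.

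At the head end of HoxD, Hoxd3 was highest in model E, at 9.12 CPM in GFP+ cells, against 9.003 CPM in GFP- cells, and 4.44 CPM or less in GFP+ cells and 4.19 CPM or less in GFP- cells of the other models. Hoxd4 was also highest in E, at 4.39 CPM in GFP+ cells, against 6.89 CPM in GFP- cells. Levels of both are uncertain, since 37.7% of the exon length of Hoxd3 and 47.7% of that of Hoxd4 are free of another gene on the same strand. Hoxd1 was low throughout, at 2.41 CPM or less in GFP+ cells and 0.597 CPM or less in GFP- cells.

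HoxA had the lowest sum of the clusters in 9 of the 10 libraries (HoxC was lower in GFP- cells of model E), and its own sum was highest in model D. Its sum was 6.45, 6.44, 4.51, 32.5 and 12.2 CPM in GFP+ cells of models A to E, against 6.63, 6.88, 10.1, 84.3 and 15.0 CPM in GFP- cells. It was lower in GFP+ than in GFP- cells in 5 of 5 pairs, but the values of models A and B lay close together. Hoxa9, known as a blood stem cell and leukaemia gene, was 13.8 CPM in GFP+ cells, against 32.0 CPM in GFP- cells of D, and 2.34 CPM or less in GFP+ cells and 4.39 CPM or less in GFP- cells elsewhere. Hoxa5, which patterns neck, shoulder and lung, was 4.33 CPM in GFP+ cells, against 16.6 CPM in GFP- cells of D, and 1.72 CPM or less elsewhere. In model D, Hoxa7 was 3.345 CPM in GFP+ cells, against 10.3 CPM in GFP- cells, and Hoxa10 was 3.84 CPM in GFP+ cells, against 7.07 CPM in GFP- cells. These genes were called among the models (adjusted p = 0.00309 for Hoxa9, 0.00359 for Hoxa5, 0.00463 for Hoxa7 and 0.0182 for Hoxa10 by edgeR). Without model D, Hoxa10 lost its call and Hoxa6 and Hoxa7 were too low to be tested. Hoxa2, a hindbrain and second pharyngeal arch gene, was led by model E, at 3.38 CPM in GFP+ cells, against 4.39 CPM in GFP- cells, beside 3.74 CPM in GFP- cells of C. Hoxa3, a gene of the throat and its glands, was 2.33, 0.852, 1.36, 2.63 and 3.43 CPM in GFP+ cells, against 2.93, 0.362, 4.18, 7.70 and 5.37 CPM in GFP- cells (adjusted p = 0.0376), a call that ended without model B or without model E.

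Set per kilobase of exon that no other gene of the strand overlaps, the leading gene differed among the models. Hoxc6 led in model A, at 61.4 CPM per kb in GFP+ and 74.0 CPM per kb in GFP- cells. Hoxb9 led in model C, at 129 and 126 CPM per kb in GFP+ and GFP- cells. In model B the leading gene was Hoxc6 in GFP+ cells (36.6 CPM per kb) and Hoxb6 in GFP- cells (27.6 CPM per kb). In model D it was Hoxb9 in GFP+ cells (43.4 CPM per kb) and Hoxb6 in GFP- cells (31.5 CPM per kb). Hoxd8 led in model E, at 19.4 and 28.9 CPM per kb in GFP+ and GFP- cells.

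**Figure D3:**
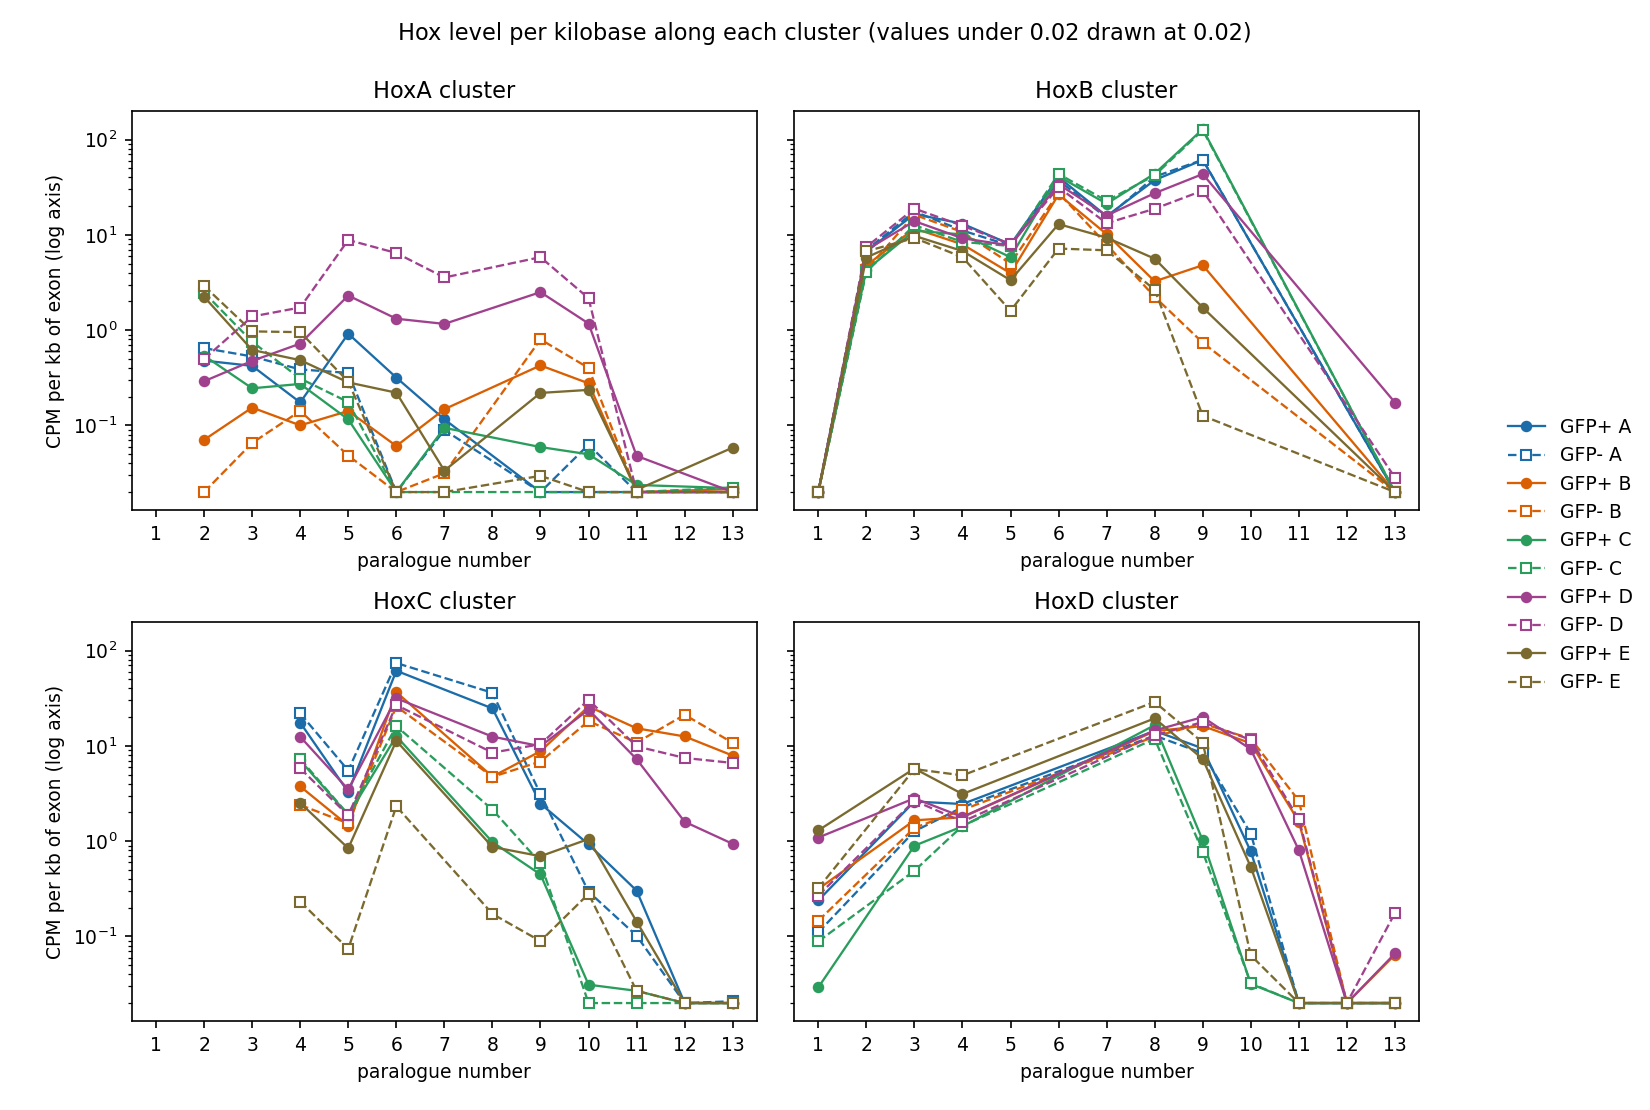
CPM per kilobase of exon (log axis) along the paralogue numbers of each cluster, 1 line per library, filled circles and solid lines for GFP+ and open squares and dashed lines for GFP- cells. The lines of HoxB lie closest together at paralogues 2 to 4 and furthest apart at 9, and in HoxC and HoxD the lines of models B and D stay up beyond paralogue 9.

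Grouped by paralogue number, posterior genes (9 to 13) made up 21.6%, 37.7%, 43.1%, 35.2% and 9.34% of Hox CPM in GFP+ cells of models A to E, against 19.9%, 37.3%, 41.7%, 38.1% and 9.56% in GFP- cells. The shares of the populations of a model lay close together, and the models lay apart except B and D. Both shares of B lay between those of D. In model C nearly all of this share was Hoxb9, and in models B and D it was spread over several genes of HoxC and HoxD, with Hoxb9 a large part in D. Anterior genes (1 to 3) were 28.4% (GFP+ cells) and 33.3% (GFP- cells) of Hox CPM in model E, and 8.54% to 16.8% in the other libraries. Model E also had the lowest Hox total, at 288 CPM in GFP+ cells, against 256 CPM in GFP- cells, whereas the other models lay between 518 and 938 CPM.

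**Figure D4:**
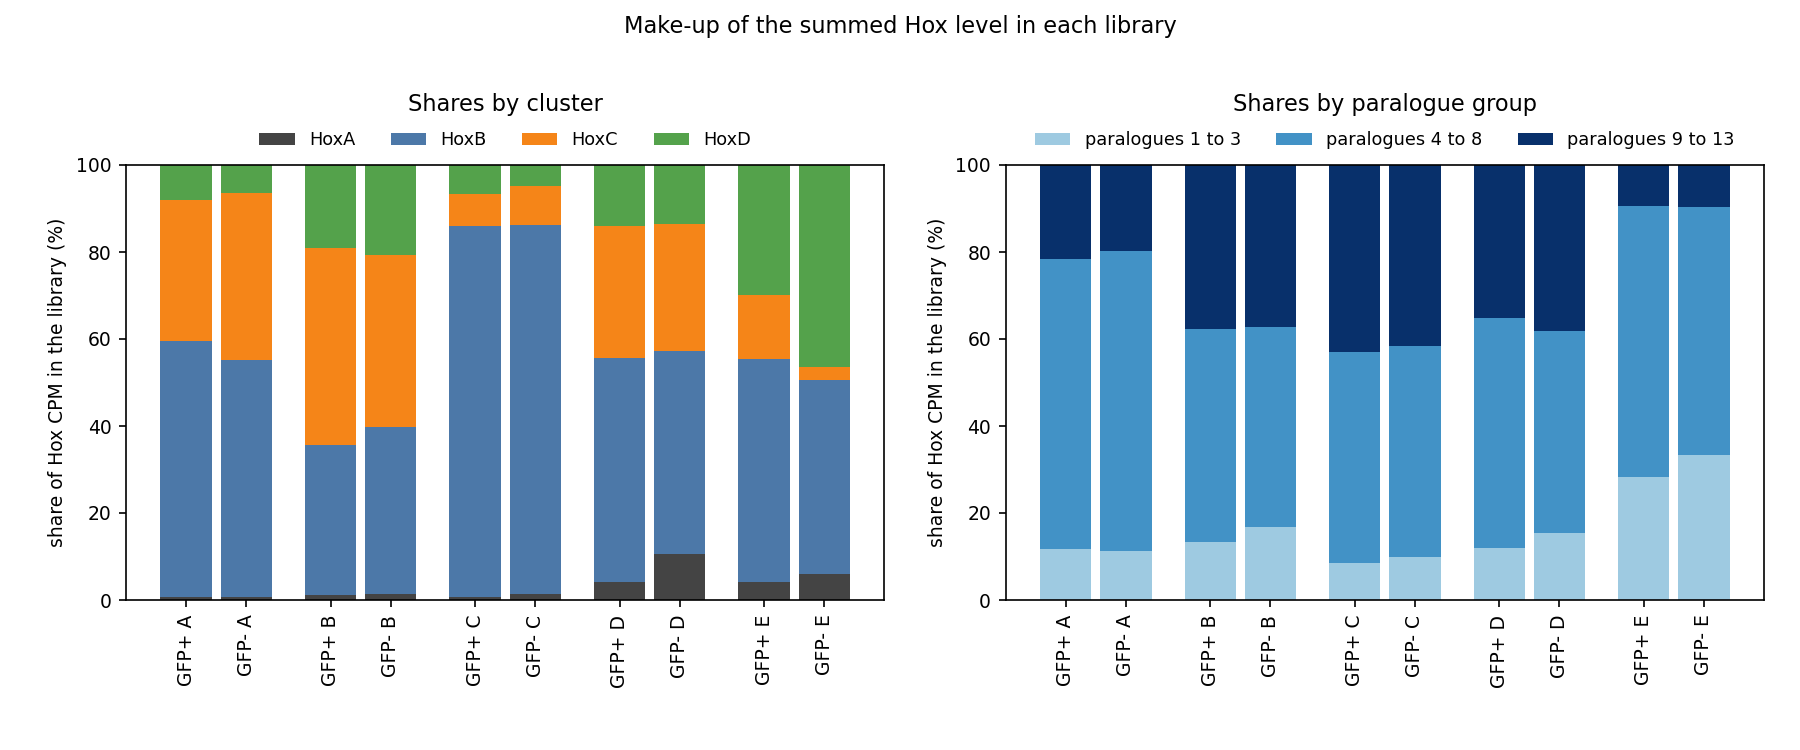
Share of the summed Hox CPM of each library by cluster (left) and by paralogue group (right), GFP+ left of GFP- within each model. HoxB makes up 85.4% and 84.96% in model C and 34.4% and 38.5% in model B, and paralogues 9 to 13 make up 9.34% and 9.56% in model E, the lowest of the models.

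Tested across all genes, the difference among models was the main pattern of the Hox genes. Of the 39 genes, 33 passed the filter on low counts, and 30 of these 33 (90.9%) had an adjusted p under 0.05 in edgeR's quasi-likelihood test of the 5 models, against 8215 of 15282 genes (53.8%). Hoxb4 and Hoxc5 were among the 3 that did not pass. The filter kept genes that were on in only a few models, and such genes had to differ. With a stricter filter (1 CPM or more in 5 libraries), 19 of 22 Hox genes passed (86.4%, against 56.3% of all genes). Among genes at 1 CPM or more in all 10 libraries, a choice made after the values were seen, 10 of 11 Hox genes (90.9%) passed, against 55.1% of 11449 genes. Each model has 1 library per population, and the fit takes out the mean difference between populations. The error in this test is therefore how far that difference varies from model to model. The test says that these libraries differ and not how far tumours of a model vary.

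Without model D, 27 of 31 tested Hox genes passed (87.1%, against 49.5% of all genes), and without model E 25 of 33 (75.8%, against 38.4%). With models A, B and C only, 17 of 29 passed (58.6%, against 31.5%), 16 of them among the 30. Calls that ended without model E were those of Hoxa3, Hoxb3, Hoxd1, Hoxd4 and Hoxd8. Without model C they were those of Hoxb2, Hoxb3 and Hoxd4, and without model B that of Hoxa3.

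Differences among models were larger for the Hox genes tested than for all genes, and so, to a lesser degree, was the median difference between populations. The range among models spans 5 model means and the pair difference 2 libraries, so the measures are each set against all genes. On log2(CPM + 0.5), the highest and the lowest model mean lay a median of 3.31 apart for the 33 Hox genes and 0.90 apart for all genes tested. The range was over 3 for 18 of the 33 Hox genes (54.5%) and for 5.71% of all genes. Without model D the medians were 2.62 for Hox genes and 0.84 for all genes, with 42.4% of Hox genes and 4.63% of all genes over 3. Without model E they were 2.63 and 0.78, with 45.5% and 4.74% over 3. With A, B and C only they were 1.47 and 0.69, with 33.3% and 3.77% over 3. The median absolute difference between GFP+ and GFP- cells of a model was 0.35 for Hox genes and 0.22 for all genes. For the 11 Hox genes on in all libraries, these medians were 1.42 among models and 0.19 within pairs, beside 0.79 and 0.19 for all genes on in all libraries. The widest range belonged to Hoxb9, at 7.34, followed by Hoxc10, at 6.50.

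Across the 39 Hox genes, the Spearman correlation between libraries was 0.931 to 0.977 within the 5 pairs. It was 0.923 to 0.947 between libraries of models A and C and 0.782 to 0.854 between those of B and D. Other models were as alike as B and D. The values were 0.818 to 0.922 between C and E, 0.803 to 0.901 between A and E and 0.734 to 0.863 between A and D. The lowest values, 0.449 to 0.551, lay between B and C. These correlations share gene lengths and mapping and are descriptions.

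The populations were then compared within models, to see whether cells with the transgene differ in Hox level from cells of the same model without it. No Hox gene passed: 0 of 33 had an adjusted p under 0.05 by edgeR with the model as a block, and 0 of 15282 genes in all. At an unadjusted p under 0.05 there were 6 Hox genes (18.2%), against 1396 genes (9.13%), of which 1 lay higher (against 5.58% of all genes) and 5 lower (against 3.56%) in GFP+ cells. The count depended on the models kept. It was 2 of 31 Hox genes without model D (6.45%, against 5.9% of all genes), 4 of 33 without model E (12.1%, against 8.06%) and 0 of 29 with models A, B and C only (against 3.9%). DESeq2 called 197 genes (1.29%), 0 of them Hox genes. The median fitted log2 difference was -0.02 over the 33 Hox genes and -0.0026 over all genes, with 15 Hox genes above and 18 below 0, and without model D the Hox median was 0.14. Beside this, the 10 Schwann markers summed higher in GFP+ cells in 5 of 5 pairs, and 8 of them had an unadjusted p under 0.05 by edgeR with 0 called after adjustment. The part of that difference in the Hox values was not tested.

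The 6 genes with an unadjusted p under 0.05 are given here, since none was called. Hoxa4 was 0.278, 0.160, 0.434, 1.15 and 0.772 CPM in GFP+ cells of models A to E, against 0.617, 0.226, 0.495, 2.75 and 1.52 CPM in GFP- cells, lower in 5 of 5 pairs. Its counts ran from 3 to 44 reads, and its fitted log2 difference was -0.91 (SE 0.30, adjusted p = 0.448). Hoxb3 averaged 53.5 ± 11.4 CPM in GFP+ cells, against 63.4 ± 16.7 CPM in GFP- cells (SD, n = 5 each; log2 -0.26, SE 0.11, adjusted p = 0.533), and was higher in GFP+ cells of model E. The other 3 could be compared in models B and D only. Hoxc12 had 243 and 30 reads in GFP+ cells of B and D, against 482 and 123 in GFP- cells (log2 -1.46, SE 0.45, adjusted p = 0.471), with -0.80 without model D and -0.68 by DESeq2. Hoxc13 had 365 and 42 reads in GFP+ cells, against 584 and 260 in GFP- cells (log2 -1.61, SE 0.58, adjusted p = 0.503), with -0.58 without model D and -2.82 without model B. Hoxd11 had 113 and 55 reads in GFP+ cells, against 220 and 102 in GFP- cells (log2 -0.94, SE 0.34, adjusted p = 0.535).

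The remaining gene, Hoxd1, was 0.445, 0.586, 0.0543, 2.03 and 2.41 CPM in GFP+ cells of models A to E, against 0.206, 0.272, 0.165, 0.501 and 0.597 CPM in GFP- cells. It was higher in 4 of 5 pairs, most in D and E (log2 1.35, SE 0.45, adjusted p = 0.450 by edgeR). Without models D and E its counts were too low to be tested. Hoxd3 alone was higher in GFP+ cells in 5 of 5 pairs (3.03% of the tested Hox genes, against 6.39% of all genes), and Hoxa4 alone lower in all 5 (3.03% against 3.24%). No Hox gene had populations whose ranges did not overlap, as 0.183% of all genes did.

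The pairs differed in how far their populations lay apart. On log2(CPM + 0.5), 1 of 33 Hox genes was more than 2-fold higher in GFP+ cells of model A, against 3.25% of all genes, and none was lower, against 1.09%. That gene was Hoxc10. In model B, Hoxb9 was higher (1 gene, against 5.25%) and none lower (against 3.94%). In model C, Hoxa2, Hoxa3 and Hoxc8 were more than 2-fold lower (against 0.681%) and none higher (against 1.52%). With 1 pair a model these counts carry no test.

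**Figure D5:**
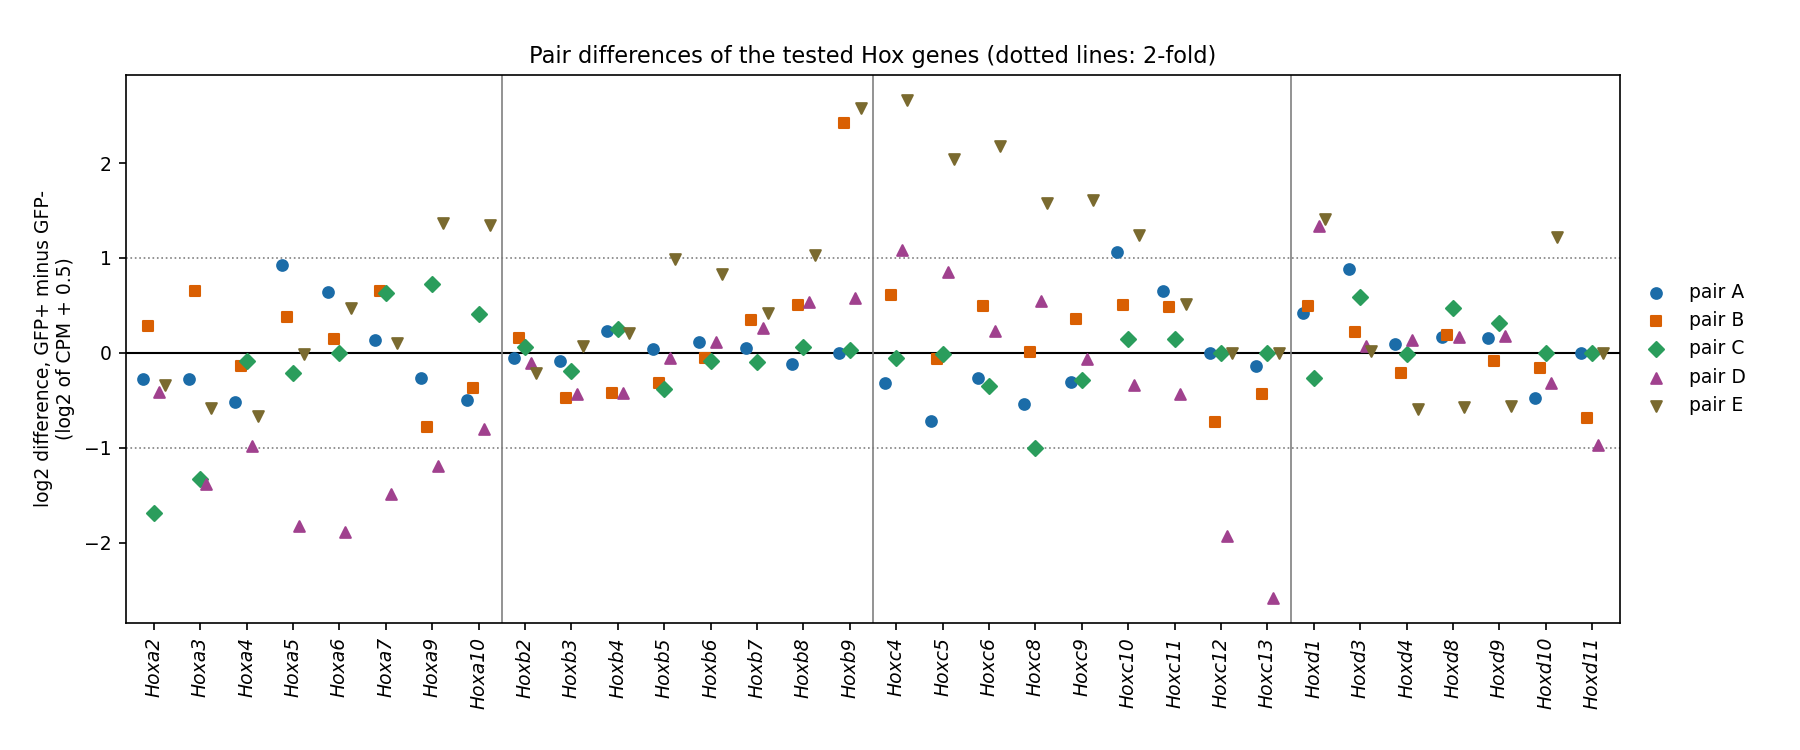
Log2 difference in log2(CPM + 0.5), GFP+ minus GFP-, of the tested Hox genes shown in each of the 5 pairs (1 symbol per model, dotted lines at 2-fold). HoxC genes 4 to 9 of pair E stand above 1, 5 HoxA genes of pair D stand under -1, and HoxB genes 2 to 7 lie within 1 of 0.

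Model D had 7 Hox genes more than 2-fold lower in GFP+ cells (against 3.31% of all genes) and 2 higher (against 3.16%). The 7 were Hoxa3, Hoxa5, Hoxa6, Hoxa7, Hoxa9, Hoxc12 and Hoxc13, and the 2 were Hoxc4 and Hoxd1. Hoxa6 was 1.15 CPM in GFP+ cells, against 5.63 CPM in GFP- cells of D, and 0.278 CPM or less in GFP+ cells and at 0 in GFP- cells elsewhere. Beside these values, Xist was 103 CPM in GFP+ cells, against 2.82 CPM in GFP- cells of D, and the 6 skeletal muscle markers summed to 0.877 CPM in GFP+ cells, against 10.1 CPM in GFP- cells. The 7 fibroblast markers summed to 10280 CPM in GFP+ cells, against 16220 CPM in GFP- cells of D, and the 10 Schwann markers to 399 CPM in GFP+ cells, against 84.55 CPM in GFP- cells. The part of these differences in the Hox values was not tested.

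Model E had 12 Hox genes more than 2-fold higher in GFP+ cells (against 3.01% of all genes) and none lower (against 0.275%). They were Hoxa9, Hoxa10, Hoxb8, Hoxb9, Hoxc4, Hoxc5, Hoxc6, Hoxc8, Hoxc9, Hoxc10, Hoxd1 and Hoxd10. Several rest on few reads in GFP- cells of E. Hoxa10 had 16 reads in GFP+ and 0 in GFP- cells, Hoxa9 25 and 3, Hoxd10 19 and 2, and Hoxc5 51 and 4. Hoxb8 and Hoxc6 had more, at 307 and 563 reads in GFP+ cells, against 129 and 103 in GFP- cells. The HoxC sum was 42.4 CPM in GFP+ cells, against 7.65 CPM in GFP- cells of E. Hoxc4 was 6.47 CPM in GFP+ cells, against 0.597 CPM in GFP- cells of E, and its fitted log2 difference over all pairs was 0.67 (SE 0.42), or 0.29 without model E. Hoxb9 had 92 reads in GFP+ and 6 reads in GFP- cells of E, and its fitted difference was 0.88 (SE 0.46), or 0.52 without model B and 0.11 without the block. The same GFP+ library held Y-linked RNA at 4.63 CPM, against 0.488 CPM in GFP- cells of E and 121 to 188 CPM in the libraries of A and D. Its part in the Hox values was not tested. Among the genes that went the other way in E were Hoxd8, Hoxd9 and Hoxd4. They stood at 53.3, 15.5 and 4.39 CPM in GFP+ cells, against 79.3, 23.1 and 6.89 CPM in GFP- cells. Hoxa2, Hoxa3 and Hoxa4 did so too, at 3.38, 3.43 and 0.772 CPM in GFP+ cells, against 4.39, 5.37 and 1.52 CPM.

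Among partners and regulators of Hox genes, most passed the test among models, as 53.8% of all genes did, and none passed between populations. The TALE homeodomain proteins bind DNA together with Hox proteins, and 8 of 9 of their genes passed the test among models (all but Pbx2), against 0 of 9 between populations. Meis3 was 11.3, 36.0, 9.29, 26.8 and 2.37 CPM in GFP+ cells of models A to E, against 1.44, 42.8, 11.3, 38.7 and 0.163 CPM in GFP- cells (adjusted p among models = 0.0190 by edgeR), highest in B and D. Of 12 genes for the chromatin regulators of Hox clusters, which keep them on or silent, 8 passed among models, and 0 between populations. Kmt2a, which encodes a histone methylase that keeps Hox genes on, was 561 CPM in GFP+ cells, against 587 CPM in GFP- cells of C, 285 to 422 CPM in the other GFP+ and 243 to 299 CPM in the other GFP- libraries (adjusted p = 0.00275).

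Retinoic acid switches on anterior Hox genes in the embryo. Of 11 genes for its making, breakdown and sensing, 10 were tested, 9 passed among models (against 53.8% of all genes) and 0 between populations. Cyp26b1, which breaks it down, was 45.5, 11.6, 391, 21.5 and 181 CPM in GFP+ cells of models A to E, against 21.6, 47.8, 434, 35.1 and 273 CPM in GFP- cells (adjusted p = 0.00287 by edgeR). Crabp1, which binds retinoic acid in the cell, was 863 to 2226 CPM in GFP+ cells, against 767 to 2509 CPM in GFP- cells. Stra6, a retinol receptor, had the smallest p of the list between populations, at 88.5 ± 57.9 CPM in GFP+ cells, against 126 ± 60.6 CPM in GFP- cells (SD, n = 5 each; log2 -0.64, SE 0.15, adjusted p = 0.335 by edgeR).

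Most genes of head and body wall patterning were too low to be tested. Among 15 genes of the head, where Hox genes are off in the embryo, 5 were tested and 4 passed among models, where 53.8% of all genes did. Of 10 limb and body wall genes, 4 were tested and all 4 passed among models. Tbx15, a factor of skin and limb mesenchyme, was 29.6 CPM in GFP+ cells, against 29.35 CPM in GFP- cells of D and 7.265 CPM or less elsewhere (adjusted p among models = 0.000204 by edgeR). Hand2, a factor of limb, heart and sympathetic neurons, was 25.15 and 9.80 CPM in GFP+ cells of C and E, against 19.9 and 20.45 CPM in GFP- cells, and 3.62 CPM or less elsewhere (adjusted p = 0.00159). The 6 neighbours and activators of the clusters (Evx1, Evx2, Cdx1, Cdx2, Cdx4 and Gbx2) all failed the filter, and together they reached 0.329 CPM at most. Of 46 noncoding genes within 5 kb of the cluster spans, 12 were tested, 7 passed among models, a share near the 53.8% of all genes, and 0 passed between populations.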

How the data were processed

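The deposited files hold raw read counts per gene, not normalized, in the 4-column layout of STAR's gene counts. The aligner STAR 2.4.2.8 is named beside the build mm10, per the submitters' processing notes. The sources used here do not give the annotation or the library kit. Counts of the second strand setting (column 4) were used, since they took 96.9% to 97.1% of stranded gene reads. Summary lines (21.3% to 24.3% of reads, among them multiply mapped and ambiguous reads) were left out, so reads shared by overlapping genes are lost. Of 46517 identifiers, 46005 matched GENCODE vM21, built on the same assembly, which gave symbols and exons. CPM used library totals in genes.

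Tests were edgeR 4.0.16 quasi-likelihood (R 4.3.3, TMM, filterByExpr on the design, 15282 genes) with model and population as terms, two-sided, Benjamini-Hochberg over all genes, called under 0.05. Samples with 1 letter were treated as a pair, because both populations were sorted from that model. Alternatives were other scalings, filters, strands and tools (DESeq2 1.42.0, limma 3.58.1), no block, and leaving out models. The filter by design was preferred, after the data were seen, to one by population (13986 genes), which drops genes on in few models. The pipeline was tested on simulated data. Members and lists were chosen with earlier results of these data known. A list gene could be named where it passed a test or, up to 3 per list, by highest mean CPM. Those shown were picked among these after their values were seen, as were the sex-linked genes. A few genes that were counted and tested are not reported here.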

Additional observations from a re-analysis of the deposited data

Results flagged for a closer look

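Of 109 groups of 5 values checked (each Hox gene and cluster sum in each population, and each gene's pair differences), 22 held 1 value whose gap to its nearest neighbour was over 0.71 of the group's range. For independent values with a normal spread the cut-off flags about 1 in 20. CPM with many values at 0, and genes of a shared cluster, do not meet this. The count of 22 is therefore not set against 1 in 20. No explanation was tested for any of them.

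Model D gave most of them, and most lay in HoxA. The HoxA sum was 32.52 CPM in GFP+ cells, against 84.3 CPM in GFP- cells of D. In HoxA of model D the values that stood above the other models were Hoxa6 at 1.152 CPM in GFP+ cells, against 5.633 CPM in GFP- cells, Hoxa7 at 3.345 CPM in GFP+ cells, against 10.26 CPM in GFP- cells, and Hoxa9 at 13.76 CPM in GFP+ cells, against 32.04 CPM in GFP- cells. Hoxa10 stood at 3.839 CPM in GFP+ cells, against 7.072 CPM in GFP- cells, and Hoxa5 stood apart in GFP- cells alone, at 16.58 CPM. Pair differences of D that stood below those of the other pairs were Hoxa6 at -1.893, Hoxa7 at -1.485 and Hoxc13 at -2.581 on log2(CPM + 0.5).

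Model E stood above the others with Hoxa2 at 3.378 CPM in GFP+ cells, with Hoxd4 at 6.888 CPM and Hoxd8 at 79.29 CPM in GFP- cells, and with pair differences of 0.8313 for Hoxb6 and 1.219 for Hoxd10. In GFP+ cells of model B, Hoxc12 at 12.94 CPM and Hoxc13 at 19.44 CPM stood above the others. Hoxc8 stood out at 102 CPM in GFP- cells of model A.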

How the results depend on the processing

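No Hox gene was called between populations under any setting run. The count over all genes was 0 by edgeR, 47 without a filter on low counts and 197 by DESeq2, and without the replicate block it was 0 (232 genes at an unadjusted p under 0.05). The block therefore changed no call. Among models, 8215 genes and 30 Hox genes were called. Leaving out 1 model gave 4328 to 7975 genes and 25 to 31 Hox genes. With models A, B and C only, added after the data were seen, 4646 genes and 17 Hox genes were called, and with 1 CPM required in 5 libraries 19 Hox genes were. With reads of both strands counted, 28 Hox genes were. Of 33 Hox genes, 17 changed the sign of their GFP+ difference in at least 1 alternative. The other 16 did not where they could be fitted, 9 of them in all 15 alternatives and the rest in 12 to 14. Among 11 named Hox genes, none of which changed sign, fitted log2 differences that moved by over 1.5 times were those of Hoxc10 (0.02 without the block and 1.12 without model D), Hoxa2 (-0.34 without model C), Hoxa3 (-0.43 with A, B and C only), Hoxc4 (0.17 without the block and 0.03 with A, B and C only) and those given with Hoxb9, Hoxc12 and Hoxc13. Hoxd3 and Hoxd4, which share exons with each other and Gm28230, averaged 2.52 and 2.29 CPM per kb on the exon length no other gene covers and 0.951 and 1.09 CPM per kb on full exon length. The causes were not tested. Depth limits what a count of 0 shows, since it allows up to 0.136 to 0.188 CPM.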
